A study of Mus musculus with 48 samples.

Results

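Killer cell lectin-like receptors (Klr genes) are C-type lectins of natural killer cells that activated and memory CD8 T cells also carry. Chromatin accessibility at these genes was measured by ATAC-seq, in which a transposase cuts open chromatin and the fragments mark accessible sites. A peak was taken as a member when it overlapped the body of a protein-coding gene whose symbol starts with Klr, or when such a gene was the nearest within 100 kb. This chose 93 of 53868 peaks, at 27 of the 29 protein-coding Klr genes of the RefSeq table (Klra16 and Klra23 had none). Of the 93 peaks, 33 overlapped a gene body, 69 overlapped a body or lay within 10 kb of it, and the farthest lay 46517 bp away. The assignment is by position alone and does not show which gene a distal peak acts on. Klrh1, whose symbol fits the rule, gave 2 of the peaks. No filter on low values was used, so all 93 peaks were tested.

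The cells were CD8 T cells of OT-1 mice, whose transgenic T cell receptor recognises an ovalbumin peptide, and in every group, controls included, they also carried Cas9 and the CD45.1 allele. They received a guide in a lentivirus with an ametrine reporter and were recovered at day 15 from tumours of B16-OVA, a mouse melanoma line made to express ovalbumin, in young or aged hosts. Guides were against Zfp219, against Dusp5, or the control named OTC in the labels. Sorting used Slamf6 and Tim-3. Tprog cells stained for Slamf6 alone, Ttran cells for both proteins, Tterm cells for Tim-3 alone and Ttad cells, sampled in aged hosts, for neither; the labels call these states progenitor exhausted, transitory effector-like, terminally exhausted and age-associated dysfunctional. Every aged group (3 guides in 4 states) held 2 libraries, and young groups held 2 in Tprog and 3 in Ttran and in Tterm, which made 48 libraries in 21 groups. Each replicate was a pool of sorted cells from independent mice, 5000 to 50000 cells in all, so a p-value measures the spread between such pools. Host age was taken from the title letters A (aged) and Y (young). Aged and young libraries also carried separate sample-sheet series, so sheet and host age cannot be told apart. In these bulk samples, a peak open in fewer cells and a peak less open in each cell cannot be told apart.

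Most of the family sits in the natural killer gene complex of mouse chromosome 6. Ly49 receptors (Klra genes) read classical MHC class I, with Klra4 (Ly49D) and Klra8 (Ly49H) as activating members and most others inhibitory. NKG2A (Klrc1) and its activating relatives pair with CD94 (Klrd1) to bind Qa-1, and NKG2D (Klrk1) binds stress ligands such as the H60, Rae1 and Mult1 proteins and signals through adaptors. Klrb1 proteins include NK1.1 (Klrb1c) and an inhibitory receptor for a Clec2 lectin (Klrb1b). KLRG1, encoded apart from the complex, binds cadherins, carries an inhibitory motif and marks late effector cells.

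RefSeq promoter windows (GRCm38.p6, 250 bases before to 50 after the start) were at hand for 24 Klr genes in 29 windows, and 9 peaks lay on one. The sequences shown belong to promoters that lay at least in part inside a peak described further on, running from 250 bases before the start to 30 after it. Capitals mark motif letters found by search on both strands: TGTGGTT (RUNX), TGANTCA (AP-1), CTTTGA (TCF/LEF) and GGAAGT (ETS).
Klrc1: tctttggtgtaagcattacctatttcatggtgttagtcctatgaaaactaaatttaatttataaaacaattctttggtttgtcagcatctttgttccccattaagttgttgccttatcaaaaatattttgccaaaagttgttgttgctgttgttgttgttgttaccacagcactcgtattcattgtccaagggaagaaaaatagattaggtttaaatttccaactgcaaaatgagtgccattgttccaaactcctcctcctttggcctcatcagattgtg
Klrc2: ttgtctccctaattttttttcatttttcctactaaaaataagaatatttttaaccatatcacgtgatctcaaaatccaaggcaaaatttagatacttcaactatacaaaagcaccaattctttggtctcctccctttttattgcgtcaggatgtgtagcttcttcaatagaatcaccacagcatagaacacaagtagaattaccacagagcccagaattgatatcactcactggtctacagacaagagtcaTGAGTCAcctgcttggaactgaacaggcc
Klrc3: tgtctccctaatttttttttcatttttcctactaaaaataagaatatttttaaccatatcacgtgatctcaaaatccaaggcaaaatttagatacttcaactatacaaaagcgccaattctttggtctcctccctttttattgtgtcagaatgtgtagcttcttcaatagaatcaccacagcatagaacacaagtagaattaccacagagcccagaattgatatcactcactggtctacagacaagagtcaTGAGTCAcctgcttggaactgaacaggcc
Klrk1: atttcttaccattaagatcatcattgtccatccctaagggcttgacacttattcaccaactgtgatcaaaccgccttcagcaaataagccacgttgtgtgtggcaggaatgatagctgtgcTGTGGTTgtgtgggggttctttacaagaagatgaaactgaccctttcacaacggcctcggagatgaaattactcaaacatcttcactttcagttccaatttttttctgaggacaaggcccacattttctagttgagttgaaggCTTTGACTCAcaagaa
Klrb1b: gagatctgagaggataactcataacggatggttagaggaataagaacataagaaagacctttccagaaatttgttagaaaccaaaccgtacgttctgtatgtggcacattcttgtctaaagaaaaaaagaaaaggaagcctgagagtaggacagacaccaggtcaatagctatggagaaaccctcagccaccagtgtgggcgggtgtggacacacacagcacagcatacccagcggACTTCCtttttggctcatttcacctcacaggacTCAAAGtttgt
Klra1: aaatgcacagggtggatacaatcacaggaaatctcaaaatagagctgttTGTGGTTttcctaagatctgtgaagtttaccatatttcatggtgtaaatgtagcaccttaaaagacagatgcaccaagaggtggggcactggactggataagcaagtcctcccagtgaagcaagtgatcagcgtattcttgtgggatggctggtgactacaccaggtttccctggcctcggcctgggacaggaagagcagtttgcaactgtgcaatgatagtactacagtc
Klre1: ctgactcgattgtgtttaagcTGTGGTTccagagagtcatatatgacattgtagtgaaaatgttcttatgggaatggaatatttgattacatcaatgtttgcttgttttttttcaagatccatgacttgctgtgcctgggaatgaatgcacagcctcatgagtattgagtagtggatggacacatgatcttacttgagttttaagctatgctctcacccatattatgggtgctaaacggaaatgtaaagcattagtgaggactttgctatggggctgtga
Klrc1, Klrk1, Klrb1b, Klra1, Klrc2 and Klrc3 are read from the minus strand and Klre1 from the plus strand, all on chromosome 6 of GRCm38.p6 at chr6:129678944-129679223 (Klrc1), chr6:129660527-129660806 (Klrc2), chr6:129643259-129643538 (Klrc3), chr6:129623835-129624114 (Klrk1), chr6:128826286-128826565 (Klrb1b), chr6:130386845-130387124 (Klra1) and chr6:129577963-129578242 (Klre1). The Klrc2 and Klrc3 windows are near copies, with 98.3% identity, and both hold AP-1 letters at base 252 of the window, so short reads there may not be placed uniquely. Klrk1 carries RUNX letters at base 122 and TCF/LEF letters at base 265 that overlap AP-1 letters at base 268. RUNX letters also occur at base 22 in Klre1 and at base 50 in Klra1, whereas the Klrc1 window held none of the motifs searched, GGTGTGA (T-box) included. Over all 29 Klr windows the share with a match was 27.6% for TCF/LEF, 17.2% for AP-1, 17.2% for ETS, 10.3% for RUNX and 3.4% for T-box. Among 32851 promoter windows of the same length those shares were 16%, 7.8%, 23.8%, 5.3% and 4.0%. Some Klr genes have overlapping windows, so the same letters can count again, as AP-1 in Klrc2 and TCF/LEF and ETS in Klrb1b. A letter match is a description and not evidence of binding.

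Levels are normalized reads, the deposited values, in which reads were divided by a library factor. Mean levels of the 93 peaks over all libraries ran from 8.72 to 1523 with a median of 121, against 93.9 for all peaks, and peak widths from 260 to 2878 bp with a median of 850. Here the strongest peak is the one with the highest mean level, uncorrected for width. By that measure it lay beside Klri2, the activating partner of KLRE1, at chr6:129745938-129748059. Its group means ran from 1350 ± 88.4 in aged Zfp219 Ttran to 1734 ± 27.7 in aged OTC Tterm (mean ± SD, n = 2 each). A peak beside Klrb1b at chr6:128835744-128837278 came next, from 684 ± 31.1 in young Dusp5 Tterm (n = 3) to 1238 ± 131 in aged OTC Tprog (n = 2). Per kilobase of peak the order was another, with 804.5 at the Klrb1b peak chr6:128802704-128803421, 718 at Klri2 129745938 and 590.4 at Klrb1b 128835744.

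The Klrc1 peak at chr6:129679798-129680869 had group means of 687 ± 40.6 (aged Dusp5 Ttad, n = 2) to 869 ± 26.2 (aged OTC Tterm, n = 2). For the Klra2 peak at chr6:131261799-131264677 they were 569.5 ± 37.4 (aged Zfp219 Tprog, n = 2) to 995 ± 29.1 (young Dusp5 Ttran, n = 3), and for the Klrb1c peak at chr6:128760085-128761204 559 ± 22.5 (aged OTC Ttad, n = 2) to 812 ± 57.9 (aged Zfp219 Ttran, n = 2). The strongest Klra17, Klre1 and Klrk1 peaks averaged 452, 426 and 352 normalized reads. At Klrk1, the NKG2D gene, the group means of its strongest peak, chr6:129626706-129628280, ran from 253 ± 93.4 (aged Dusp5 Tterm, n = 2) to 520.5 ± 8.87 (young Dusp5 Tprog, n = 2). The strongest peaks of Klrd1, Klrc2 and Klra9 had group means of 122 to 262, 97.9 to 170.0 and 101 to 265. Over the 27 genes the strongest peak averaged between 19.4 (Klri1) and 1523 (Klri2), and 91 of the 93 peaks had a read in every library.

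Library depth was 5638413 to 16159054 reads in peaks in aged and 6589023 to 29942755 in young hosts, of which 7424 to 22306 and 10325 to 42975 fell in Klr peaks. Those were 0.127% to 0.141% of reads in the 24 aged and 0.139% to 0.164% in the 24 young libraries, and 0.1295% to 0.138% in aged OTC and 0.139% to 0.147% in young OTC libraries. All 7 T cell marker genes had peaks, with sums of 5572 to 7290 normalized reads in the 48 libraries. Natural killer markers, which overlap the programme of effector T cells, summed to 1509 to 2087, while the defining gene Ncr1 had 1 peak with 1.6 to 31.7. B cell, regulatory T cell, melanocyte and myeloid defining genes Ms4a1, Cd79a, Foxp3, Tyr, Dct, Csf1r and Lyz2 had no peak, and 2 of 3, 4 of 6 and 3 of 5 genes of the regulatory T cell, melanocyte and myeloid lists had any. Melanocyte-list sums were 854 to 1537 and B cell sums, from Pax5 alone, 112 to 424. Accessibility at Zfp219 or Dusp5 does not check a guide-made edit.

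Terminally exhausted cells were more open than progenitors at 4 Klrg1 peaks, in both host ages and with all 3 guides. They were less open at single peaks of Klrb1c and Klra4 and at both Klra8 peaks. Peaks are called at a Benjamini-Hochberg adjusted p under 0.05 in limma over all 53868 peaks, and differences are on the log2(value + 1) scale, given with their SE. In aged OTC cells 22 of 93 Klr peaks differed (11 higher and 11 lower in Tterm), where 20.1% of all peaks did, 11.2% higher and 8.88% lower. In young OTC cells 23 differed (10 higher, 13 lower; all peaks 26.5%, 12.6% higher and 13.9% lower). With Zfp219 guides the counts were 26 in aged cells (20 higher, 6 lower; all peaks 18.8%, 10.4% higher and 8.38% lower) and 22 in young cells (8 higher, 14 lower; all peaks 26.8%, 13.6% higher and 13.3% lower). With Dusp5 guides they were 28 in aged cells (14 higher, 14 lower; all peaks 22.9%, 12.6% higher and 10.3% lower) and 26 in young cells (8 higher, 18 lower; all peaks 29.8%, 14.5% higher and 15.3% lower). The share of Klr peaks called was 28% in aged Zfp219 and 30.1% in aged Dusp5 cells and 23.7% to 28% in the other 4 comparisons. In aged Zfp219 cells rises outnumbered falls, with a median Klr difference of 0.27 against -0.01 for all peaks. In the other 5 comparisons the median Klr difference lay between -0.05 and 0.04 and that of all peaks between -0.01 and 0.01. The 6 comparisons share no library: 4 peaks, all at Klrg1, were higher in Tterm in all 6, and 4 peaks were lower in all 6. No peak was called in opposite directions, 37 were called in none and 56 in at least 1.

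**Figure D1:**
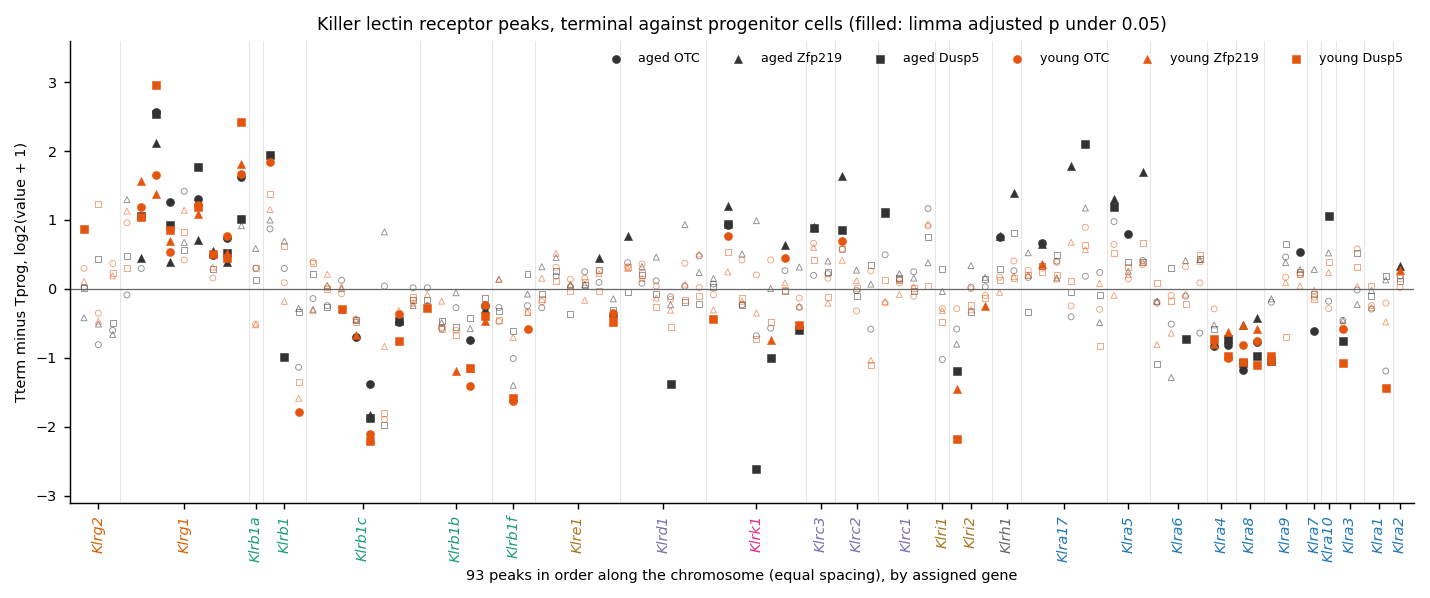
Tterm minus Tprog difference (log2(value + 1) scale, y axis) of the 93 Klr peaks in chromosomal order by gene (x axis). Circles, triangles and squares are OTC, Zfp219 and Dusp5 guides, dark points aged and orange points young hosts, and filled points have an adjusted p under 0.05. Filled points lie above 0 at Klrg1, with 4 peaks called higher in all 6 comparisons. Called lower in all 6 were single peaks of Klrb1c and Klra4 and both Klra8 peaks.

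Klrg1, the marker of late effector cells, had 9 peaks, and 6 of them were higher in Tterm in aged OTC and 6 in young OTC cells. The peak at chr6:122268882-122270700, called its gene-body peak here, lies over an edge of the gene and mostly outside it. A weak peak wholly inside the gene, 122274508, averaged 14.6 normalized reads and was called in 0 of 22 comparisons. The gene-body peak held 162 and 151 normalized reads in aged OTC Tprog, 376 and 392 in Ttran and 367 and 384 in Tterm. In young OTC cells the same peak held 338 and 339 in Tprog, 545, 544 and 499 in Ttran and 533, 471 and 476 in Tterm. Tprog was lowest in both ages with no overlap with Ttran or Tterm, and aged Tprog lay far below young Tprog. The Tterm minus Tprog difference was 1.26 ± 0.14, adjusted p = 7.62e-12 in aged and 0.54 ± 0.13, adjusted p = 0.000645 in young cells.

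At a further Klrg1 region, chr6:122284321-122285171, aged OTC libraries held 89.5 and 113 in Tprog against 243 and 255 in Tterm, and young ones 121 and 111 against 285, 256 and 274. Its differences were 1.3 ± 0.18, adjusted p = 1.66e-08 in aged and 1.22 ± 0.17, adjusted p = 4.99e-09 in young cells. The narrow peak chr6:122262683-122263016 was nearly closed in Tprog, with 4.53 and 6.21 in aged and 9.31 and 9.41 in young libraries. It reached 53.4 and 24.7 and 46.1, 23.6 and 29.2 in Tterm, differences of 2.57 ± 0.56, adjusted p = 0.000249 and 1.66 ± 0.51, adjusted p = 0.00984. Tterm replicates were spread widely there, and no Tprog library reached them. At the strongest Klrg1 peak, chr6:122293488-122294736, aged Tprog held 476 and 456 and Tterm 816 and 743, a difference of 0.74 ± 0.11, adjusted p = 8.44e-08.

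Over all 6 comparisons the difference was 0.39 to 1.26 at the gene-body peak, 0.71 to 1.77 at 122284321, 1.38 to 2.96 at 122262683 and 0.39 to 0.77 at 122293488. The smallest value at the gene-body peak came from aged Zfp219 cells, whose Tprog libraries held 326 and 299 and Tterm libraries 430.0 and 389. Leaving out a replicate number of the compared groups at once ended that call, and those of 122284321, 122293488 and 122262683 in the same cells. For 122262683 this happened also in aged OTC, young OTC, aged Dusp5 and young Zfp219 cells, and for 122293488 in aged Dusp5 and young Dusp5 cells. Klrg2, a related gene elsewhere on chromosome 6, had 3 peaks, of which 1 was called, in young Dusp5 cells. The natural killer marker list had 5 of 20 peaks higher and 2 lower in Tterm in aged OTC cells. In young OTC cells 4 were higher and 3 lower. Of all peaks 20.1% and 26.5% were called in these comparisons. Myeloid-list sums were 581 to 694 in aged Tprog and 865 to 991 in aged Tterm. The part of these lists in the Klrg1 result was not tested.

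**Figure D2:**
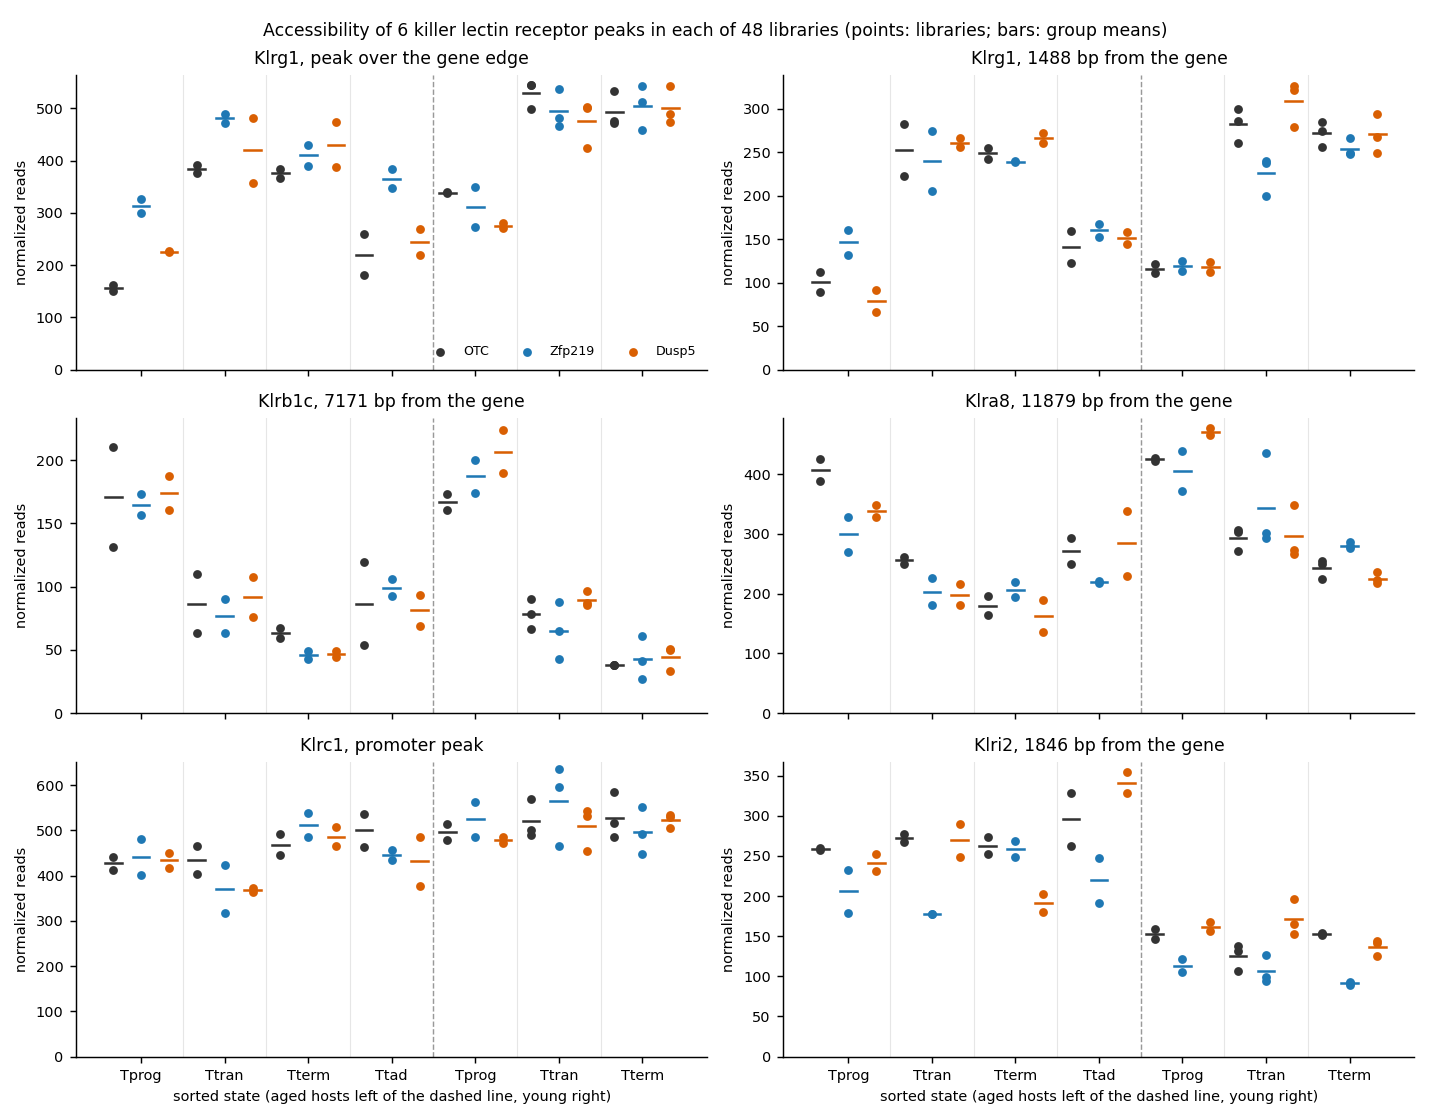
Normalized reads (y axis, from 0) in each library at 6 Klr peaks, by host age, guide and state (x axis); points are libraries and bars are group means. Both Klrg1 peaks are lowest in Tprog, the Klrb1c and Klra8 peaks are highest in Tprog, the Klrc1 promoter peak has overlapping states, and the Klri2 peak is higher in aged than young OTC libraries.

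Among Ly49 genes, peaks at the activating Klra4 and Klra8 were lower in Tterm in all 6 comparisons. Of 27 Klra peaks, 3 were higher and 5 lower in Tterm in aged OTC cells, and 5, all lower, were called in young OTC cells. With Zfp219 guides 5 were higher and 3 lower in aged and 2 higher and 5 lower in young cells. With Dusp5 guides 3 were higher and 6 lower in aged cells and 7, all lower, were called in young cells. Of all peaks 11.2%, 10.4% and 12.6% were higher and 8.88%, 8.38% and 10.3% lower in aged OTC, Zfp219 and Dusp5 cells. In young cells with these guides 12.6%, 13.6% and 14.5% were higher and 13.9%, 13.3% and 15.3% lower. The Klra8 peak chr6:130102010-130103347 held 426 and 389 in aged OTC Tprog, 262 and 250.3 in Ttran and 163 and 196 in Tterm. Young OTC cells gave 422 and 428, then 307, 303 and 271, then 224, 254 and 250.3. Tprog stood above Ttran and Ttran above Tterm with no overlap in both ages, and the Tterm minus Tprog differences were -1.18 ± 0.17, adjusted p = 2.5e-08 and -0.81 ± 0.15, adjusted p = 1.72e-05. A further Klra8 peak, chr6:130135886-130137061, went from 422 and 365 to 221 and 236 in aged and from 519 and 503 to 308, 297 and 298 in young OTC cells. The Klra4 peak chr6:130069910-130071317 went from 245 and 208 to 122 and 134 and from 305 and 277 to 163, 134 and 141, differences of -0.81 ± 0.20, adjusted p = 0.00117 and -1.0 ± 0.18, adjusted p = 7.53e-06. The promoters of Klra4 and Klra8 share 86.0% of bases, so reads of these genes may be placed at either. The peaks described lie outside the promoter windows, and their own likeness was not tested. All 3 peaks were lower in all 6 comparisons, but leaving out a replicate number ended their calls in aged Zfp219 cells (adjusted p up to 0.271 for Klra4, 0.536 and 0.559 for Klra8) and that of Klra4 in aged OTC (0.175), aged Dusp5 (0.521) and young Zfp219 cells (0.194). For 130102010 it did so in young Zfp219 cells as well (0.192).

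Peaks of the Klrb1 cluster, which holds the NK1.1 gene, were called mostly lower in Tterm. Of 20 Klrb peaks, 5 were called in aged OTC cells, all lower, and 1 was higher and 7 lower in young OTC cells. Of all peaks 11.2% were higher and 8.88% lower in aged OTC and 12.6% higher and 13.9% lower in young OTC cells. Neighbouring lectin genes that are not Klr genes (40 peaks) had 3 higher and 6 lower in aged and 1 higher and 12 lower in young OTC cells. Pax5, the B cell marker with peaks, was also highest in Tprog, with sums of 202 to 304 normalized reads in aged Tprog against 112 to 214 in aged Tterm; its part in the result was not tested. The Klrb1c peak chr6:128770421-128771314 held 131 and 210.3 in aged OTC Tprog and 67.5 and 59.6 in Tterm. In young OTC cells it held 160.5 and 173 in Tprog, 90.5, 78.2 and 66.5 in Ttran and 37.9, 37.7 and 38.2 in Tterm, a stepwise order without overlap. Differences were -1.38 ± 0.32, adjusted p = 0.000561 in aged and -2.10 ± 0.29, adjusted p = 6.77e-09 in young cells, and -2.21 to -1.38 over all 6 comparisons. It was the only one of 8 Klrb1c peaks lower in all 6, and the strongest, 128760085, was called in none of them. In aged OTC cells leaving out a replicate number ended the call of 128770421.

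The Klrb1b peak chr6:128826402-128828464, which reaches into the promoter window shown, went in young OTC cells from 229 and 222 to 74.6, 102 and 77.6, without overlap (-1.41 ± 0.20, adjusted p = 2.64e-08). In aged OTC cells it held 229.8 and 235 in Tprog and 144 and 133 in Tterm (-0.75 ± 0.22, adjusted p = 0.0098), a call that ended when a replicate number was left out (adjusted p up to 0.197). It was lower in 4 of the 6 comparisons, and the stronger Klrb1b peak 128835744 and the Klrb1c peak chr6:128796208-128797152 were lower in 5. Whether the fall at Klrb1b differs between host ages was not tested.

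NKG2A, its relatives and CD94 gave few calls with OTC guides and more in aged cells with the other guides, a split not tested between guides. Of all peaks 20.1%, 18.8% and 22.9% were called in aged OTC, Zfp219 and Dusp5 cells, and 26.5% in young OTC cells. The median difference of the 15 peaks was 0.20, 0.38 and 0.16 in aged OTC, Zfp219 and Dusp5 cells. Of 15 Klrc and Klrd1 peaks, limma called 0 in aged OTC cells (3 at an unadjusted p under 0.05, and 1 by edgeR) and 1, higher, in young OTC cells. The Klrc1 promoter peak chr6:129678240-129679194 held 442 and 413 in aged OTC Tprog and 446 and 491 in Tterm, and 480.0 and 514 and 585, 485 and 516 in young cells. The groups lay close in aged cells and overlapped in young cells. Its Tterm minus Tprog difference was -0.08 to 0.22 over the 6 comparisons, and that of the neighbouring Klrc1 peak 129679798 was -0.11 to 0.25, with no call in any. The called peak of young OTC cells was the Klrc2 promoter peak, chr6:129660127-129660714, with 105 and 56.5 in Tprog and 139.7, 129.7 and 108 in Tterm (0.69 ± 0.26, adjusted p = 0.0357). It was higher in 3 of the 6 comparisons, and leaving out a replicate number ended the call in young OTC (adjusted p up to 0.734) and aged Dusp5 cells (0.175). In aged Zfp219 cells 4 of the 15 peaks were higher in Tterm, led by the Klrc2 promoter peak, which went from 28.4 and 32.5 to 90.5 and 103 without overlap (1.64 ± 0.28, adjusted p = 3.82e-06). Its near copy at Klrc3, the promoter peak chr6:129642846-129643370, went from 58.3 and 33.5 to 86.2 and 79.8 (0.89 ± 0.30, adjusted p = 0.0278). The others were Klrd1 129586838 (0.77 ± 0.20) and Klrc1 129668792 (1.10 ± 0.30). Aged Dusp5 cells had 3 higher peaks, at Klrc1, Klrc2 and Klrc3, and 1 lower peak inside Klrd1, chr6:129592806-129593513. It went from 138 and 152 to 64.7 and 46.6 (-1.38 ± 0.25, adjusted p = 6.07e-06). Without a replicate number the Klrc2 call in aged Zfp219 and the Klrd1 call in aged Dusp5 cells were kept, while those of Klrc3 (adjusted p up to 0.508 and 0.311) and Klrc1 (0.613 and 0.378) in these cells and of Klrd1 129586838 in aged Zfp219 cells (0.203) were lost.

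At Klrk1, the NKG2D gene, 1 of 7 peaks was higher in Tterm in aged OTC and 2 in young OTC cells. Of all peaks 11.2% and 12.6% were higher in these comparisons. The intragenic peak chr6:129614108-129614921 went from 63.4 and 93.2 to 142 and 154 in aged and from 101 and 80.4 to 146, 164 and 154 in young OTC cells. Groups did not overlap in either age, and the differences were 0.93 ± 0.26, adjusted p = 0.00504 and 0.77 ± 0.24, adjusted p = 0.00978. It was higher in 4 of the 6 comparisons, each lost in at least 1 fit without a replicate number (adjusted p up to 0.684). The promoter peak chr6:129623386-129624156 was higher in Tterm in young OTC cells, from 185 and 202 to 245, 281 and 269 (0.45 ± 0.18, adjusted p = 0.0457), and in aged Zfp219 cells (0.64 ± 0.19, adjusted p = 0.0109). Both calls were lost in fits without a replicate number (adjusted p up to 0.221 and 0.672).

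Other Klrk1 peaks were lower in Tterm, 3 in aged Dusp5, 2 in young Dusp5 and 1 in young Zfp219 cells. Of all peaks 10.3%, 15.3% and 13.3% were lower in these comparisons. The peak chr6:129620744-129621360 went from 40.4 and 51.7 to 16.4 and 2.33 in aged Dusp5 cells (-2.62 ± 0.49, adjusted p = 1.44e-05), without overlap and with Tterm libraries far apart. In aged Zfp219 cells it held 19.9 and 38.6 in Tprog and 58.6 and 53.7 in Tterm (0.99 ± 0.49, adjusted p = 0.16). The strongest Klrk1 peak, 129626706, was lower in aged Dusp5 (-0.59 ± 0.16, adjusted p = 0.00251) and young Dusp5 cells (-0.52 ± 0.14, adjusted p = 0.0026), and 129622222 in aged Dusp5 (-1.0 ± 0.24, adjusted p = 0.00098) and young Zfp219 cells (-0.74 ± 0.22, adjusted p = 0.00742). The other was 129607894 in young Dusp5 cells (-0.44 ± 0.15, adjusted p = 0.0201). Each of these calls was lost in at least 1 fit without a replicate number (adjusted p up to 0.231 for 129620744, 0.278 for 129626706, 0.189 for 129622222 and 0.205 for 129607894).

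KLRE1 forms dimers with KLRI1 and KLRI2. Of the 10 Klre1, Klri1 and Klri2 peaks 1 was called in each age with OTC guides (all peaks 20.1% in aged and 26.5% in young cells). This was the Klre1 peak chr6:129582819-129584484, which went from 479 and 452 to 351 and 365 in aged and 607 and 466 to 473, 405 and 382 in young cells. It was lower in Tterm, without overlap in aged and with overlap in young libraries. Leaving out a replicate number ended that call in aged (adjusted p up to 0.423) and in young OTC cells (0.375).

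Klrg1 regions were more open in transitional cells than in progenitors. In aged OTC cells 18 Klr peaks differed between Ttran and Tprog (11 higher, 7 lower in Ttran; all peaks 17%, 9.99% higher and 6.98% lower), and 7 of 12 Klrg peaks were higher. Young OTC cells gave 12 (6 higher, 6 lower; all peaks 16.9%, 9.07% higher and 7.82% lower), and the 6 higher ones were all Klrg peaks. Between Ttran and Tterm 1 Klr peak was called in aged cells (all peaks 3.22%, 1.87% higher and 1.35% lower) and 5 in young cells (2 higher and 3 lower in Ttran; all peaks 8.38%, 5.02% higher and 3.36% lower). The aged call was Klra8 130135886, higher in Ttran at 0.54 ± 0.14, adjusted p = 0.02. In young cells Klrb1c 128770421 was higher in Ttran than in Tterm by 1.02 ± 0.26, adjusted p = 0.00521 and Klrb1b 128826402 by 0.86 ± 0.18, adjusted p = 0.000587. The 3 peaks lower in Ttran lay at Klra5 (-1.15 ± 0.38), Klra17 (-0.75 ± 0.21) and Klre1 (-0.43 ± 0.11). Between Ttran and Tterm limma called 0 of 12 Klrg peaks in either age (1 in aged and 0 in young cells at an unadjusted p under 0.05, and 0 by edgeR). Both comparisons use the same Ttran libraries as those with Tprog. Each of these 6 calls except Klrb1b was lost in at least 1 fit without a replicate number (adjusted p up to 0.58 for Klra8, 0.1 for Klrb1c, 0.219 for Klra5, 0.122 for Klra17 and 0.0605 for Klre1).

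Ttad cells with OTC guides, negative for both gate proteins and sampled in aged hosts, were less open at Klrg1 than Ttran and Tterm and, at some of its peaks, more open than Tprog. Against Tprog 11 Klr peaks differed (7 higher, 4 lower in Ttad; all peaks 6.55%, 3.82% higher and 2.73% lower), against Ttran 12 (5 higher, 7 lower; all peaks 7.74%, 3.02% higher and 4.72% lower) and against Tterm 7 (2 higher, 5 lower; all peaks 7.28%, 3.02% higher and 4.26% lower). These comparisons use OTC libraries alone and share those of Ttad. At Klrg1 5 peaks were lower than in Ttran and 4 lower than in Tterm, while 3 were higher than in Tprog. The gene-body peak held 181 and 259 in Ttad, above both Tprog libraries (162 and 151) and below all Ttran and Tterm libraries. Its differences were 0.47 ± 0.14, adjusted p = 0.0281 from Tprog, -0.82 ± 0.14, adjusted p = 2.36e-05 from Ttran and -0.79 ± 0.14, adjusted p = 3.52e-05 from Tterm. At 122284321 Ttad held 159 and 123, below Ttran (-0.84 ± 0.18, adjusted p = 0.00114), and at 122293488 539.9 and 590.1. Of the 20 natural killer marker peaks 5 were called against Ttran, all lower (all peaks 7.74%). Against Tterm 1 was higher and 3 were lower (all peaks 7.28%). The part of these markers in the result was not tested.

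Single CD94 and KLRE1 regions were higher in Ttad than in Tprog and Ttran. With OTC guides the peak chr6:129586838-129587582 beside Klrd1 held 245 and 221 in Ttad against 129 and 151 in Tprog, 120.3 and 171 in Ttran and 163 and 203 in Tterm. OTC Ttad libraries lay above every OTC library of the other 3 aged states, with differences of 0.73 ± 0.20, adjusted p = 0.0119 from Tprog and 0.69 ± 0.20, adjusted p = 0.0168 from Ttran; that from Tterm was 0.35 ± 0.20, adjusted p = 0.324. The Klre1 peak on the promoter shown, chr6:129576935-129578550, held 386 and 393 against 302 and 279 in Tprog and 278 and 297 in Ttran. In all, 3 of 6 Klre1 peaks were higher in Ttad than in Ttran, by 0.74 ± 0.24, 0.44 ± 0.13 and 0.54 ± 0.16. Klrb1c 128770421 and Klra8 130102010 were lower in Ttad than in Tprog (-1.04 ± 0.32 and -0.59 ± 0.17). Without a replicate number there were 1 to 2 calls against Tprog, 5 to 8 against Ttran and 2 to 3 against Tterm, and a fit of the compared groups alone left 5, 4 and 4. The Klrd1 and Klre1 calls were among those lost (adjusted p up to 0.558 and 0.367 against Ttran), as were those of the gene-body Klrg1 peak (0.77 against Tprog, 0.0635 against Ttran, 0.111 against Tterm), Klrb1c (0.458) and Klra8 (0.529).

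More Klr peaks were lower than higher in aged hosts. For the mean of Tprog, Ttran and Tterm in OTC cells, 37 Klr peaks differed (8 higher and 29 lower in aged hosts), where 36.5% of all peaks did, 17.3% higher and 19.1% lower. The median Klr difference was -0.17 against 0.00 over all peaks. By role, 13 of 27 Ly49 peaks were lower and 2 higher, 4 of 15 Klrc and Klrd1 peaks and 3 of 7 Klrk1 peaks were called, all lower, and 5 of 10 Klre1 and Klri peaks were lower and 3 higher. Klrb peaks went both ways, 2 higher and 3 lower. The summed Ly49 signal was 3356 to 4033 normalized reads in the 6 aged and 4167 to 4724 in the 8 young OTC libraries, which did not overlap. Klrb sums overlapped, at 4361 to 5223 and 4109 to 5151.

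**Figure D3:**
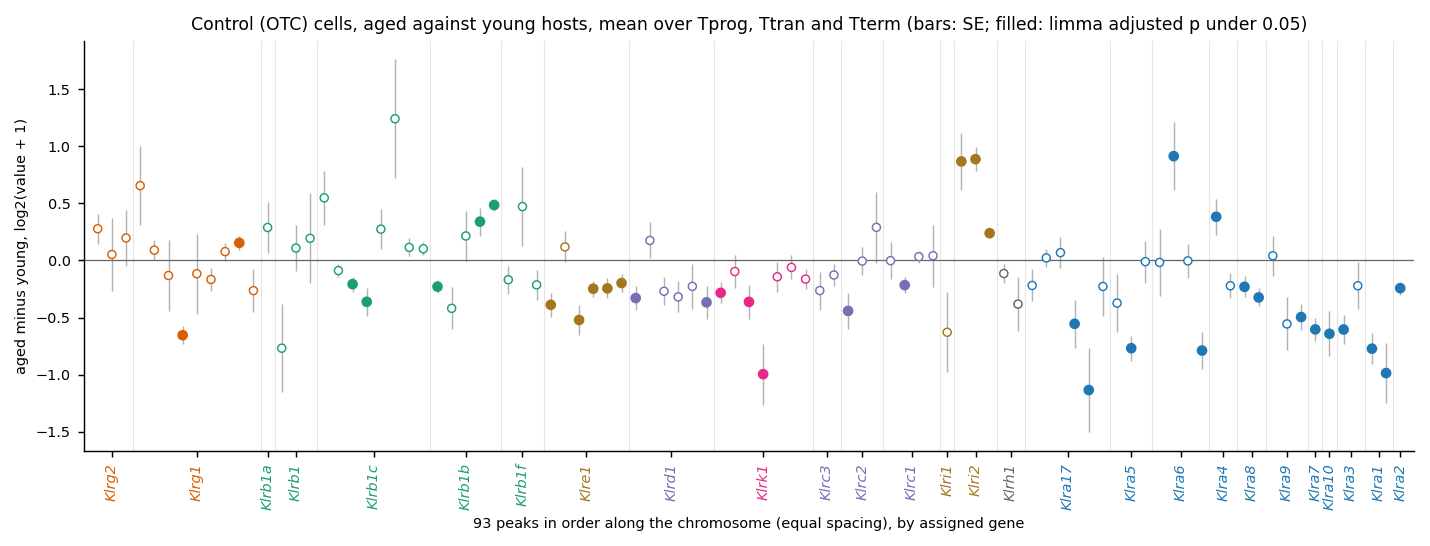
Aged minus young difference in OTC cells (mean of 3 states, log2(value + 1) scale, y axis, bars are SE) of the 93 Klr peaks in chromosomal order (x axis), coloured by subfamily; filled points have an adjusted p under 0.05. Of 37 filled points 29 lie below 0; the Klri2 peaks stand above 0 and many Klra peaks below.

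Klri2, the activating KLRE1 partner, had all 3 of its peaks higher in aged hosts. At chr6:129742330-129742902 the 6 aged libraries held 253, 264 and 277 and the 8 young libraries 107, 149 and 158 (lowest, median and highest). The ages did not overlap, with a difference of 0.89 ± 0.10, adjusted p = 8.03e-12. The strongest peak, 129745938, held 1558, 1705 and 1754 in aged and 1312, 1435 and 1556 in young libraries, again without overlap (0.24 ± 0.04, adjusted p = 7.76e-07), and the other, 129733319, differed by 0.87 ± 0.25, adjusted p = 0.00367, a call lost in 2 of 3 fits without a replicate number (adjusted p up to 0.127). Klrb1b 128835744 was higher in aged hosts as well, at 1036, 1092 and 1330 against 709, 784 and 909.8 (0.49 ± 0.05, adjusted p = 1.71e-13).

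Ly49 members made up much of the other direction. The peak chr6:129917487-129918371 beside Klra5 (Ly49E) held 99.6, 159.6 and 188 in aged and 204, 256 and 278 in young libraries, without overlap (-0.77 ± 0.11, adjusted p = 6.34e-09). The Klra1 (Ly49A) promoter peak, chr6:130386662-130387692, held 71.7, 80.6 and 103 and 95, 142 and 168, with overlap at the edges (-0.77 ± 0.14, adjusted p = 1.98e-06). A Klra7 (Ly49G) peak at chr6:130237608-130238579 held 128, 184 and 240.4 and 225, 267 and 299 (-0.60 ± 0.10, adjusted p = 1.2e-06). Further falls were -0.79 ± 0.16 at Klra6, -0.64 ± 0.20 at Klra10 and -0.60 ± 0.13 at Klra3. Some Ly49 promoters are similar (Klra9 and Klra3 share 85.0% of bases, Klra5 and Klra6 76.0%), so members may not be independent measurements. Others are less alike, with 51.3% for Klra7 and Klra1 and 53.0% for Klra10 and Klra3. Whether the peaks named here share reads was not tested. Without a replicate number the Klra10 call was lost in 2 of 3 fits (adjusted p up to 0.0931).

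Klrk1 was lower at chr6:129620744-129621360, with a difference of -1.0 ± 0.27, adjusted p = 0.00162, lost in 1 of 3 fits without a replicate number (adjusted p up to 0.12). Of the 6 Klre1 peaks 5 were lower, 1 of which, 129582819 (-0.20 ± 0.08), stood at 0.001 without replicate 1, and the Klrc1 promoter peak was lower (-0.22 ± 0.07, adjusted p = 0.012), a call lost in 1 of 3 such fits (0.212). The Klrg1 gene-body peak held 151, 372 and 392 in aged and 338, 488 and 545 in young libraries (-0.65 ± 0.08, adjusted p = 1.47e-11). The ages overlapped there across states, while aged Tprog lay below all other libraries. The myeloid marker list had 7 of 12 peaks called in aged against young hosts, all lower, where 36.5% of all peaks were called. Its sums in Tprog were 581 to 694 in aged and 783 to 985 in young libraries. The T cell list had 13 of 46 lower and 1 higher. The part of these lists in the result was not tested. Without a replicate number 19 to 33 peaks were called.

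With Zfp219 guides in aged hosts the Klrg1 gene-body peak, which lies mostly outside the gene, was more open than with OTC. Klri2 and Klrb1b regions were less open. For the mean of 4 states 24 Klr peaks differed from OTC (7 higher, 17 lower), where 25.8% of all peaks did, 12.1% higher and 13.7% lower. The Klrg1 gene-body peak held 299, 387 and 489.8 in 8 Zfp219 and 151, 313 and 392 in 8 OTC libraries (0.55 ± 0.07, adjusted p = 9.21e-10). By state the gap was widest in Tprog, 326 and 299 against 162 and 151, and Ttad, 384 and 347 against 181 and 259, and it was smallest in Tterm, 430.0 and 389 against 367 and 384; the states' gaps were not tested against each other. Klrb1c 128760085 rose by 0.30 ± 0.05, adjusted p = 1.78e-06 and Klra5 129917487 by 0.40 ± 0.10, adjusted p = 0.00127. Further rises lay at 2 Klrk1 peaks, 1 Klra17 peak (by 1.01 ± 0.34) and 1 Klrb1c peak.

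Among the falls, Klrb1b 128835744 held 808, 838 and 1022 with Zfp219 and 924, 1038 and 1330 with OTC guides (-0.32 ± 0.05, adjusted p = 2.94e-08). Klri2 129742330 held 177, 212 and 269 and 253, 265 and 329 (-0.35 ± 0.09, adjusted p = 0.00272), and all 3 Klri2 peaks were lower. At 129733319 the values were 13.3, 28.8 and 42.6 and 37.0, 51.9 and 104 (-0.96 ± 0.23, adjusted p = 0.000759). Of 27 Ly49 peaks 7 were lower and 2 higher, the lower ones including Klra4 130069910 (-0.39 ± 0.10) and Klra8 130102010 (-0.22 ± 0.08). Of 15 Klrc and Klrd1 peaks 3 were called, all lower, at Klrc1 and Klrc3. In the natural killer marker list 7 of 20 peaks were called, all higher, and in the myeloid list 4 of 12, all higher. The melanocyte list had 4 of 7 called, all lower, where 25.8% of all peaks were called. The part of these lists was not tested. In Ttad alone 6 Klr peaks differed (3 higher, 3 lower, where 8.23% of all peaks did, 3.66% higher and 4.56% lower). Among them were Klra5 129917487 (0.97 ± 0.20), the Klrg1 gene-body peak (0.75 ± 0.14) and Klra4 130062600 (-0.91 ± 0.29). Fits without a replicate number gave 8 to 11 calls over the 4 states and 3 in Ttad, and ended the calls of Klri2 129742330 (adjusted p up to 0.143) and 129733319 (0.166) and of Klra5 129917487 (0.0685), Klra4 130069910 (0.115), Klra8 130102010 (0.303) and Klra17 (0.702) over the 4 states and those of Klra5 (0.0714), Klrg1 (0.287) and Klra4 130062600 (0.302) in Ttad.

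In young hosts Zfp219 guides gave 7 calls over the mean of 3 states (6 higher, 1 lower), where 7.07% of all peaks were called, 1.92% higher and 5.15% lower. The fall was Klri2 129742330, with 89.2, 96.6 and 126 in Zfp219 and 107, 149 and 158 in OTC libraries (-0.47 ± 0.10, adjusted p = 0.000439). It was lower with Zfp219 guides in both ages, and the difference between ages was 0.14 ± 0.15, adjusted p = 0.624, which does not show that the ages act alike. Of the rises, that with the smallest adjusted p was inside Klrd1 (CD94), chr6:129594707-129595259, with 72.8, 92.1 and 111 against 39.4, 54.0 and 77.7 (0.76 ± 0.18, adjusted p = 0.00329). The other rises lay at Klrb1c (0.76 ± 0.22), Klre1, 2 Klrk1 peaks and the Klra1 promoter peak (0.39 ± 0.13). Leaving out a replicate number gave 2 to 4 calls and ended that of Klrd1 in 2 of 3 fits (adjusted p up to 0.0662), that of Klrb1c in 1 (0.406) and that of Klra1 in 2 (0.464).

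The Zfp219 difference itself differed between host ages at 13 Klr peaks over the 3 shared states, 1 more positive and 12 more negative in aged hosts, where 9.11% of all peaks were called (4.09% and 5.01%). The median Klr value of this interaction was -0.17. The positive peak was the Klrg1 gene-body peak at 0.55 ± 0.11, adjusted p = 0.000215. Young OTC and Zfp219 Tprog libraries held 338 and 339 and 349 and 274, without the gap seen in aged Tprog. Negative peaks included Klrb1b 128835744 (-0.41 ± 0.07, adjusted p = 2.61e-05), Klri2 129745938 (-0.28 ± 0.06, adjusted p = 0.000264) and Klrd1 129594707 (-1.25 ± 0.28, adjusted p = 0.000951). These 4 kept their calls with each replicate number left out, whereas the count fell to between 4 and 10.

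**Figure D4:**
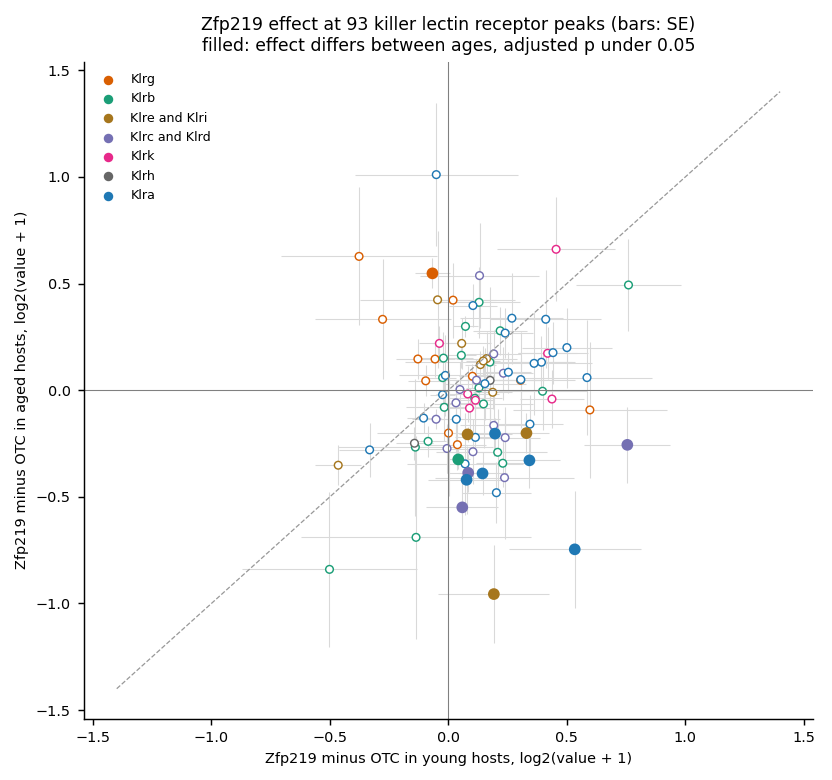
Zfp219 minus OTC difference on the log2(value + 1) scale for the 93 Klr peaks in young hosts (mean of 3 states, x axis) and aged hosts (mean of 4 states, y axis), with SE bars; filled points have an adjusted p under 0.05 for the difference between ages, tested over the 3 shared states. Klrg1 122268882 is the 1 filled point more positive in aged hosts and 12 are more negative.

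Dusp5 guides called fewer Klr peaks. In aged hosts 8 differed over 4 states (3 higher, 5 lower; all peaks 12.2%, 4.35% higher and 7.87% lower), in Ttad alone 2 (1 higher, 1 lower; all peaks 2.88%, 1.21% higher and 1.67% lower) and in young hosts 1, higher (all peaks 3.82%, 1.8% higher and 2.02% lower). The Zfp219 and Dusp5 comparisons share the OTC libraries. In aged hosts the Klrg1 gene-body peak was higher by 0.25 ± 0.07, adjusted p = 0.0109, with Tprog at 226 and 225 against 162 and 151 for OTC. The Klrg1 peak chr6:122257840-122259637 was higher too (0.25 ± 0.08, adjusted p = 0.0366), as was Klrb1c 128760085. Klrd1 129586838 was lower, with 105, 130.2 and 169 against 120.3, 167 and 245 and overlap (-0.37 ± 0.10, adjusted p = 0.00557), and in Ttad, 136 and 132 against 245 and 221 (-0.79 ± 0.20, adjusted p = 0.013). A second Klrd1 peak, Klre1, Klrc3 and Klra9 each gave 1 lower peak. Of the 20 natural killer marker peaks 6 were called in aged hosts, all higher, where 12.2% of all peaks were called. Of the T cell, CD4 and regulatory T cell and melanocyte marker peaks 8 of 46, 3 of 6 and 3 of 7 were called, all lower. The part of these markers was not tested. In young hosts the call was Klrb1c 128753544 (0.78 ± 0.22, adjusted p = 0.0235). The Dusp5 difference differed between ages at 4 Klr peaks (1 more positive and 3 more negative in aged hosts; all peaks 4%, 1.27% higher and 2.73% lower). Leaving out a replicate number gave 3 to 5, 0, 0 to 1 and 0 to 2 calls in these 4 comparisons, and ended the calls of the Klrg1 gene body (adjusted p up to 0.477), Klrg1 122257840 (0.377), Klrb1c 128760085 (0.171), Klrd1 129586838 (0.277 over the states, 0.197 in Ttad) and Klrb1c 128753544 (0.294).

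Genes that work with the receptors were read in the same comparisons. Adaptor and signalling genes (15 genes, 99 peaks) had 14 higher and 7 lower peaks in Tterm against Tprog in aged OTC and 16 higher and 17 lower in young OTC cells, where 20.1% and 26.5% of all peaks were called. A Lat2 peak was higher in Tterm by 1.24 ± 0.14 in aged and 1.27 ± 0.13 in young cells, a Fcer1g peak by 0.85 ± 0.18 and 0.82 ± 0.16. Tyrobp, the DAP12 adaptor of activating Ly49 and NKG2D receptors, was lower at its strongest peak (-0.37 ± 0.10 and -0.36 ± 0.10). Ligand genes (14 of 15 with a peak, 57 peaks) had 10 higher and 8 lower in aged and 8 higher and 9 lower in young OTC cells. The KLRG1 ligand gene Cdh1 (E-cadherin) was higher in Tterm by 0.88 ± 0.10 in aged and 0.42 ± 0.09 in young cells, and of the NKG2D ligand genes H60c was higher and H60b lower.

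Between host ages adaptor peaks were 13 higher and 22 lower and ligand peaks 1 higher and 20 lower in aged hosts, where 36.5% of all peaks were called. H2-T23, which encodes the Qa-1 ligand of NKG2A, was lower in aged hosts at its strongest peak (-0.20 ± 0.05). With Zfp219 guides adaptor peaks were 11 higher and 15 lower in aged hosts and 18, all lower, were called in young hosts, where 25.8% and 7.07% of all peaks were called. Neighbouring lectin genes of the complex that are not Klr genes (12 of 19 with a peak, 40 peaks) had 10 higher and 9 lower peaks in aged hosts, where the 93 Klr peaks had 8 and 29; the split was not tested between the lists. Among those neighbours Cd69 was higher in aged hosts by 0.18 ± 0.04. In Tterm against Tprog the neighbours had 3 higher and 6 lower in aged OTC and 1 higher and 12 lower in young OTC cells. Of the 93 Klr peaks 73 were called in at least 1 of the 22 comparisons, where 75.9% of all peaks were, and 20 in none, and the Klrg1 gene-body peak was called most often, in 17.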

How the data were processed

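The 48 ATAC-seq libraries, a measure of open chromatin, were put into 21 groups by sample title. The authors deposited 1 table of normalized signal, reads per peak divided by a library factor, per the file headers and the values; whole reads were recovered for 100% of values (tolerance 0.01 reads). The submitters' processing notes list mm10, Bowtie2 2.2.9, Picard 2.8.0, SAMtools 1.3.1, MACS2 2.1.1 and DESeq2 1.28.1 with no role or order; the treatment of duplicates and of the insertion offset is not given in the sources used here, and differences in either would change all levels. Peaks were assigned by position to GRCm38.p6 RefSeq protein-coding genes; exon and intron positions were not used here.

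Values were tested as log2(value + 1) with limma 3.58.1 (R 4.3.3, lmFit and eBayes with trend, 21 group means, 27 residual degrees of freedom), with Benjamini-Hochberg adjustment over 53868 peaks and calls at an adjusted p under 0.05. On this scale changes of weak peaks are understated. Alternatives were edgeR 4.0.16 on the recovered reads, log2(value + 8), a test without the weakest 25% of peaks, quantile normalization, a replicate block, the compared groups alone, leaving out a replicate number, gene-body peaks alone and peaks within 10 kb. On simulated reads, limma recovered 76.5% of 200 peaks changed 2-fold, with 7 false calls, for Tterm against Tprog in aged OTC cells. Depth was 5638413 to 29942755 reads in peaks per library. Precision was read from replicates, whose reads differed by 2.79 to 4.53 times counting noise (chi-square per degree of freedom, 33 pairs).

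Named peaks were the strongest of each gene, up to 3 rises and 3 falls per comparison with a mean of at least 20, peaks on Klr promoters and, for gene lists, the strongest called peak of a gene; others named were chosen after their values were seen. Members and lists were chosen with earlier results of these data known. Which mice entered which pool is not given in the sources used here.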

Additional observations from a re-analysis of the deposited data

Results flagged for a closer look

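At 17 points a guide's difference from OTC was itself different between aged and young hosts, by an interaction test over Tprog, Ttran and Tterm in limma (adjusted p under 0.05 over all peaks; negative values mean a more negative difference in aged hosts). For Zfp219 guides these were Klrg1 122268882 at 0.55 (adjusted p = 0.000215), Klrb1b 128835744 at -0.41 (2.61e-05) and Klri2 129745938 at -0.28 (0.000264), with a further Klri2 peak, 129733319, at -1.16 (0.0237).

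CD94 and NKG2 genes gave Klrd1 129594707 at -1.25 (adjusted p = 0.000951), Klrc3 129644042 at -0.44 (0.0285) and Klrc1 129668792 at -0.77 (0.0189), and the inhibitory and activating dimer gene Klre1 gave 129552191 at -0.60 (0.00312). Young Ttran libraries of that Klre1 peak held 303, 331 and 339 normalized reads with Zfp219 guides against 230, 212 and 220 with OTC, while aged Ttran libraries held 118 and 135 against 150 and 166. Ly49 genes gave Klra17 129815629 at -0.67 (0.0196), Klra6 129987877 at -1.31 (0.0334), Klra4 130069910 at -0.55 (0.011), Klra8 130135886 at -0.41 (0.00845) and Klra9 130165569 at -0.74 (0.0414).

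With Dusp5 guides the Klrg1 gene-body peak 122268882 differed between ages by 0.42 (adjusted p = 0.0112), Klrb1 128732105 by -0.91 (0.0459), Klrd1 129589434 by -0.87 (0.00969) and Klra9 130196950 by -0.56 (0.0209). The Zfp219 and Dusp5 values share the OTC libraries, and aged and young libraries carry separate sample-sheet series, which cannot be told apart from age. Of the 13 Zfp219 points, 4 to 10 were called when a replicate number was left out, and of the 4 Dusp5 points 0 to 2.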

How the results depend on the processing

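Of 1865 fits of the 315 Klr calls under settings that keep every library, 1750 kept the call in the same direction, 115 lost it and 0 reversed it; of 780 fits without a replicate number, 401 kept it, 378 lost it and 1 reversed. The reversal was the Klre1 peak 129582819, aged minus young, whose difference was -0.34 to 0.001 without a replicate number, the highest without replicate 1. Leaving out a replicate number drops that library from each compared group that holds it, and from no other group. Where compared aged groups or young Tprog held the dropped number, they were left with 1 library, assumed to vary like the rest.

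Counts of called Klr peaks without a replicate number, lowest to highest, were as follows. Tterm against Tprog gave 11 to 13 in aged OTC (22 with all libraries), 8 to 11 in aged Zfp219 (26), 10 to 17 in aged Dusp5 (28), 14 to 17 in young OTC (23), 14 to 17 in young Zfp219 (22) and 16 to 25 in young Dusp5 cells (26). Ttran against Tprog gave 7 to 13 in aged (18) and 7 to 11 in young OTC cells (12), and Ttran against Tterm 1 to 2 in young cells (5). Ttad against Tprog, Ttran and Tterm gave 1 to 2 (11), 5 to 8 (12) and 2 to 3 (7). Aged against young gave 19 to 33 (37). Zfp219 against OTC gave 8 to 11 over aged states (24), 3 in aged Ttad (6), 2 to 4 in young hosts (7) and 4 to 10 for the difference between ages (13). Dusp5 against OTC gave 3 to 5 (8), 0 in aged Ttad (2), 0 to 1 in young hosts (1) and 0 to 2 between ages (4). The cause was not tested beyond the smaller number of libraries.

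Gene-body peaks alone, 33 of 93, by construction gave fewer calls. Tterm against Tprog gave 4, 7 and 11 in aged OTC, Zfp219 and Dusp5 and 7, 6 and 6 in young cells. Ttran against Tprog gave 4 and 2 in aged and young cells, Ttran against Tterm 0 and 1, and Ttad against Tprog, Ttran and Tterm 3, 4 and 1. Aged against young gave 14, Zfp219 comparisons 7, 2, 4 and 4 and Dusp5 comparisons 2, 0, 0 and 2, in the order above. Peaks within 10 kb gave 11 for Ttran against Tprog in aged cells, 14 and 17 for Tterm against Tprog in young Zfp219 and Dusp5 cells, and 1 and 0 for Dusp5 in aged Ttad and in young hosts.

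A fit of the compared groups alone gave 0 for Ttran against Tterm in aged and 10 in young cells, 5, 4 and 4 for Ttad against Tprog, Ttran and Tterm, and 2, 0 and 3 for Dusp5 over aged states, in aged Ttad and in young hosts. EdgeR gave 9 for Ttran against Tterm in young cells, 7 for Ttad against Ttran, and 1 and 2 for Dusp5 in aged Ttad and in young hosts. Ttran against Tterm in aged cells gave 2 with quantile normalization and 2 without the weakest peaks; the former gave 3 for Zfp219 in aged Ttad and the latter 2 for Dusp5 in young hosts. A pseudocount of 8 left every count within 1.5 times. For all these moves the cause was not tested.

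Replicate numbers were no sign of pairing: deviations of same-numbered libraries correlated between -0.015 and 0.015 in aged and -0.018 and 0.017 in young hosts. With a replicate block within each age the aged against young count was 20, but that fit set a single replicate number of each age against the other. That count, and the age calls counted above under this setting, are therefore no measure of how well the age result holds. Each other count stayed within 1.5 times. Depth limits the weakest peaks, where a few reads per library set the level.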
